A study of Mus musculus with 9 samples.

Results

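The sequence-specific splicing regulators of the Srsf, Hnrnp, Mbnl, Celf, Rbfox, Ptbp, Esrp and Nova families were examined in the mouse lambdoidal junction, the tissue where the facial prominences meet to form the upper lip and primary palate. The members are all protein-coding genes of the deposited table that carry a symbol of these families. There were 50 of them among 54532 genes: 20 Hnrnp, 11 Srsf, 6 Celf, 3 Mbnl, 3 Ptbp, 3 Rbfox, 2 Esrp and 2 Nova genes. The RNA came from untreated C57BL/6J embryos aged E10.5, E11.5 or E12.5, and there were 3 libraries of each age. A library was made from the tissue of many pooled embryos, so the spread between libraries is that between pools. All 50 members passed the filter on low counts in each comparison of stages.

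SR proteins (Srsf genes) bind exonic enhancers and help the spliceosome to recognise an exon, while many hnRNP proteins bind pre-mRNA and can block exon use. Muscleblind-like (Mbnl) and Celf proteins often act in opposite directions on the same exons, and a rise of Mbnl and a fall of Celf activity is a known feature of heart and muscle development. Rbfox proteins read a short GCATG element, Ptbp proteins bind pyrimidine-rich tracts and hold back neuronal exons, Nova proteins are neuronal regulators, and Esrp1 and Esrp2 maintain the epithelial isoforms of genes such as Fgfr2. Loss of Esrp1 in mice causes cleft lip and palate. Many of these genes also regulate their own RNA through exons whose inclusion or omission brings a premature stop codon and nonsense-mediated decay.

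The alternative exons of 5 members are shown because the results on these members refer to them. Mbnl2, Celf1 and Srsf11 are the members with an entry in the study's table of splicing events, of which a part was read here. The exon of Mbnl1 is the counterpart of that in Mbnl2, and the Ptbp2 exon is the one that Ptbp1 is known to suppress. Sequences and transcript classes are from GENCODE vM21 (GRCm38), written 5′ to 3′ on the strand of the gene. Capitals mark the bases that differ between Mbnl1 and Mbnl2, the annotated stop codon in Srsf11 and the bases added by the upstream splice site in Celf1. No base is capitalised in Ptbp2.
Mbnl2, chr14:120395712-120395765, plus strand: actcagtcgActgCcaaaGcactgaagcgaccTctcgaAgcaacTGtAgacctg
Mbnl1, chr3:60614683-60614736, plus strand: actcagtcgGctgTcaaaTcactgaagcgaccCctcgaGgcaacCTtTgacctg
Srsf11, chr3:158024123-158024231, minus strand: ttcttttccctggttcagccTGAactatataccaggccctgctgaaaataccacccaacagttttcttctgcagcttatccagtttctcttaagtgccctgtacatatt
Celf1, chr2:91006620-91006695, plus strand: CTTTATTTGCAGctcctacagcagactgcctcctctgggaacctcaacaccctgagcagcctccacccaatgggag
Ptbp2, chr3:119724612-119724645, minus strand: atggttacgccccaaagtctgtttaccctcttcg

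The Mbnl1 and Mbnl2 exons were both 54 bases long and identical at 46 positions (85.2%). This exon of Mbnl1 is known to promote nuclear localization of the protein. Its length is a multiple of 3, and for Mbnl2 the annotation lists 3 protein-coding transcripts with it and 3 without it. The 109-base Srsf11 exon was annotated in 2 transcripts, both classed as nonsense-mediated decay targets, with a stop codon at bases 21 to 23 of the exon. In Celf1 the upstream splice site adds 12 bases to an exon that is otherwise 64 bases long. The 34-base Ptbp2 exon was annotated in 3 protein-coding transcripts, and 2 of the 3 transcripts without it were classed as decay targets. Of the 50 members, 25 had at least 1 annotated transcript of the decay class, among them 9 of the 11 Srsf genes, 10 Hnrnp genes and all 3 Ptbp genes. The deposited counts sum all transcripts of a gene, so the levels given here do not separate these forms and the inclusion of the exons was not analysed here.

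The 9 libraries held 16581009 to 20836804 counts each, of which the 50 members took 1.9% to 2.24%. E10.5 replicate 3 stood apart from the other E10.5 libraries, and its departure followed GC content. Across the 50 members, Spearman's rho between GC content and the difference from the other E10.5 libraries was −0.67, and across 16363 genes it was −0.55, as a description of 1 library. In that library 15 members lay more than 0.5 (log2) from the mean of the other E10.5 libraries. Celf2 (log2 difference 1.01), Esrp1 (0.84) and Srsf3 (0.75) lay above them, and Hnrnpa0 (−0.94) and Hnrnpab (−0.72) lay below them. The E12.5 libraries also differed among themselves, in part along gene model length. Across the 50 members, Spearman's rho between length and the difference from the other E12.5 libraries was 0.50 in replicate 2. It was −0.35 in replicate 3 and −0.20 in replicate 1. Across all genes that passed the filter it was 0.53, −0.40 and −0.16 in the same order, as a description of single libraries. More than 0.5 from the other libraries of that stage lay 10 members in replicate 3, 5 in replicate 2 and 4 in replicate 1. Srsf4 (−0.99) and Nova2 (−0.66) lay low in replicate 3, and Mbnl3 (1.32) lay high in replicate 2.

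**Figure D1:**
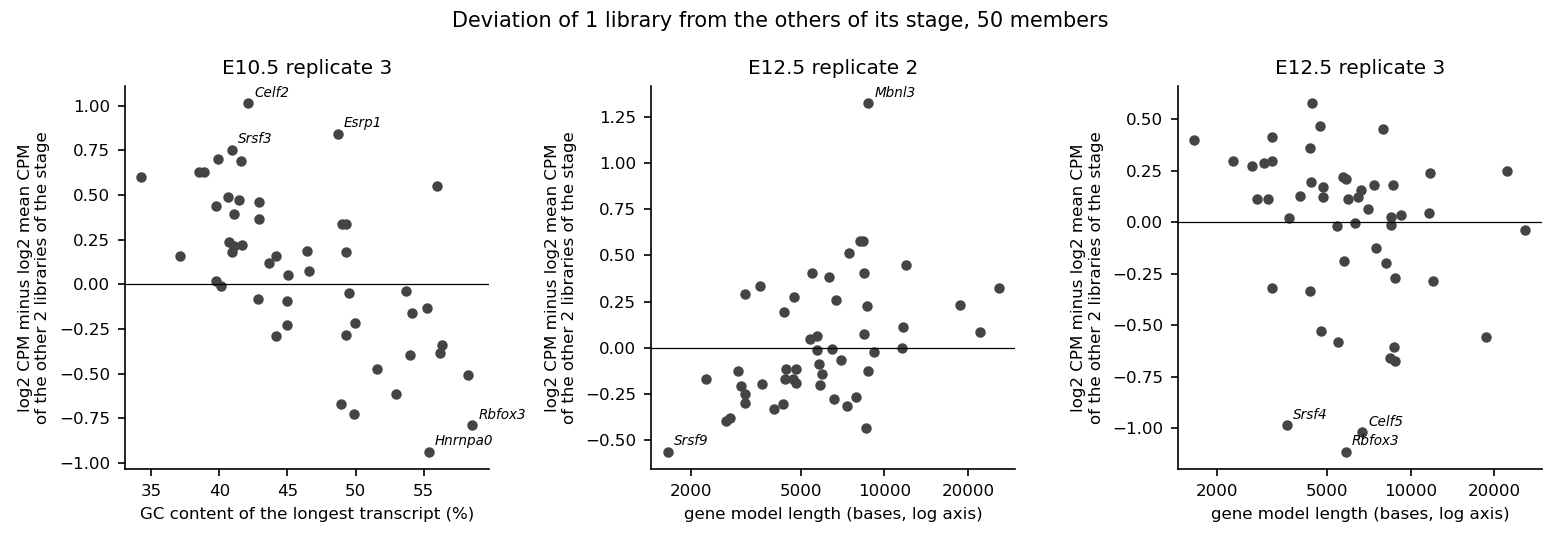
Difference in log2 CPM between 1 library and the mean of the other libraries of its stage, for each of the 50 members (points), against GC content of the longest transcript for E10.5 replicate 3 and against gene model length for E12.5 replicates 2 and 3. GC-poor members lie high and GC-rich members low in E10.5 replicate 3, with Celf2 at 1.01 and Hnrnpa0 at −0.94, Mbnl3 lies at 1.32 in E12.5 replicate 2, and Srsf4 lies at −0.99 in E12.5 replicate 3.

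Levels between genes were compared as CPM (read counts scaled to the same library size) per kb of gene model, averaged over the 9 libraries. They spanned 3653-fold, from 0.144 for Rbfox1 to 526 for Hnrnpa1, the classical shuttling hnRNP that opposes SR proteins. The Hnrnp genes lay between 14.6 (Hnrnpr) and 526, and the Srsf genes between 2.18 (Srsf12) and 201 (Srsf7). In several families 1 member stood above the rest. Rbfox2 stood at 37.7 CPM per kb, against 0.144 for Rbfox1 and 0.167 for the neuronal Rbfox3. Celf1 stood at 38.9, above Celf2 (1.93) and Celf3 (1.52), while Celf4, Celf5 and Celf6 lay under 1. Ptbp1 stood at 133 and exceeded Ptbp2 (26.9) and Ptbp3 (21.6). Esrp1 stood at 10.5 and Esrp2 at 3.6, Mbnl2 at 7.57, Mbnl1 at 2.84 and Mbnl3 at 1.9, and Nova1 at 1.73 and Nova2 at 1.01. The order of the members was nearly the same at each stage (Spearman's rho 0.995 for E11.5 and 0.993 for E12.5 against E10.5, across the 50 genes). Values of neighbours in this order, such as Celf2 and Mbnl3 or Rbfox1 and Rbfox3, were closer than the spread between libraries. The gene model can join exons of many annotated transcripts, and a long model lowers the level per kb. For Celf2 it was 25884 bases and for Mbnl1 18717, where their longest transcripts had 8856 and 5655. For Celf1 it was 8446, against 7851. The distances between members therefore depend on this choice of length.

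**Figure D2:**
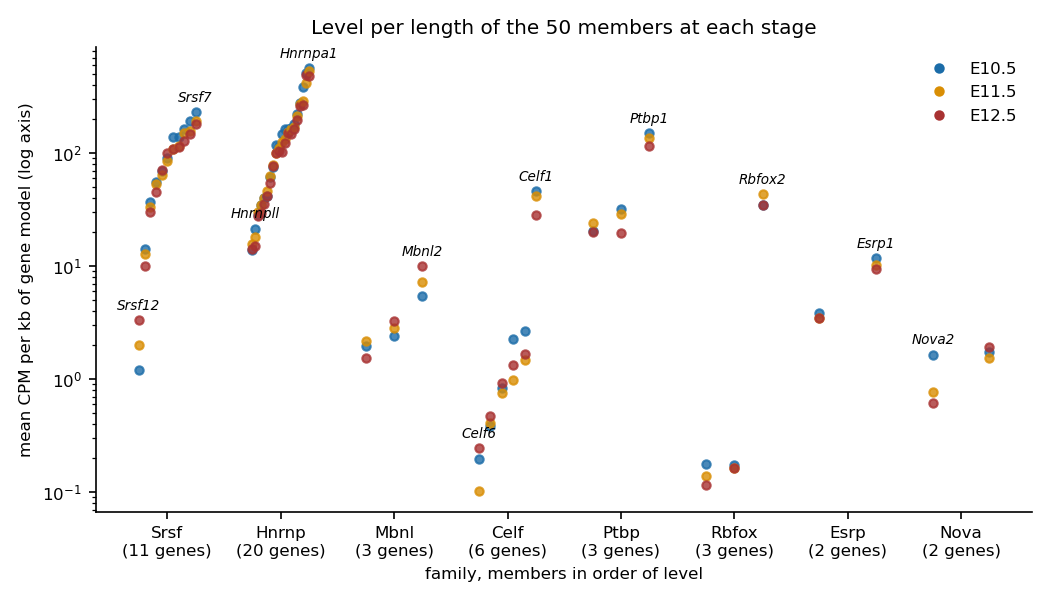
Mean CPM per kb of gene model (log axis) of each member at the 3 stages (colours, mean of 3 libraries), by family in order of level. Hnrnpa1 is highest at 526 over all libraries, and the Celf, Ptbp and Rbfox families each have 1 member, Celf1, Ptbp1 and Rbfox2, above the rest.

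The 3 pairs of stages were compared with edgeR's quasi-likelihood test, and p-values were adjusted over all genes tested. A gene was taken as a DEG where the adjusted p-value did not exceed 0.05 and the change was at least 2-fold in either direction (1 on the log2 scale). Few members met them. Celf3 and Nova2 were downregulated in E11.5 vs. E10.5, which is 2 of 50 members (4%), where 6.07% of all genes tested were DEGs and 2.61% were downregulated ones. No member was a DEG in E12.5 vs. E11.5, where 5.1% of all genes were, while 6 members had an unadjusted p-value under 0.05. DESeq2 also gave 0 DEGs among the members there (2.86% of all genes), with 9 members at an unadjusted p-value under 0.05. The shares over all genes at the unadjusted threshold are not given, so these counts are not read as a result about the members. Srsf12 was upregulated and Nova2 downregulated in E12.5 vs. E10.5, against 15% of all genes, with 9.97% upregulated and 5.08% downregulated.

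Without the fold threshold, 3 members passed in the first interval (E11.5 vs. E10.5), 3 in the second (E12.5 vs. E11.5) and 7 over the whole span (E12.5 vs. E10.5). Over all genes the shares were 11.8%, 12.2% and 24.6%, so the members changed at rates of 6%, 6% and 14%. Over the whole span, 2 members rose (Srsf12 and Mbnl2), where 14% of all genes did, and 5 fell (Nova2, Celf3, Celf1, Ptbp2 and Hnrnpu), where 10.5% did. Over the 3 stages together, 9 of 50 members changed, against 28.3% of 16375 genes. These were Celf1, Celf2, Celf3, Hnrnpll, Hnrnpu, Mbnl2, Nova2, Ptbp2 and Srsf12. Most of the other shifts were small and downward. In E12.5 vs. E10.5, 38 of 50 members had a negative log2 fold change, with a median of −0.18 against −0.0063 over all genes. The medians were −0.11 in E11.5 vs. E10.5 (all genes −0.032) and −0.12 in E12.5 vs. E11.5 (all genes 0.019). All E12.5 libraries lay below all E10.5 libraries for 15 members and above them for 3, where the shares over all genes were 20.4% and 22%.

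**Figure D3:**
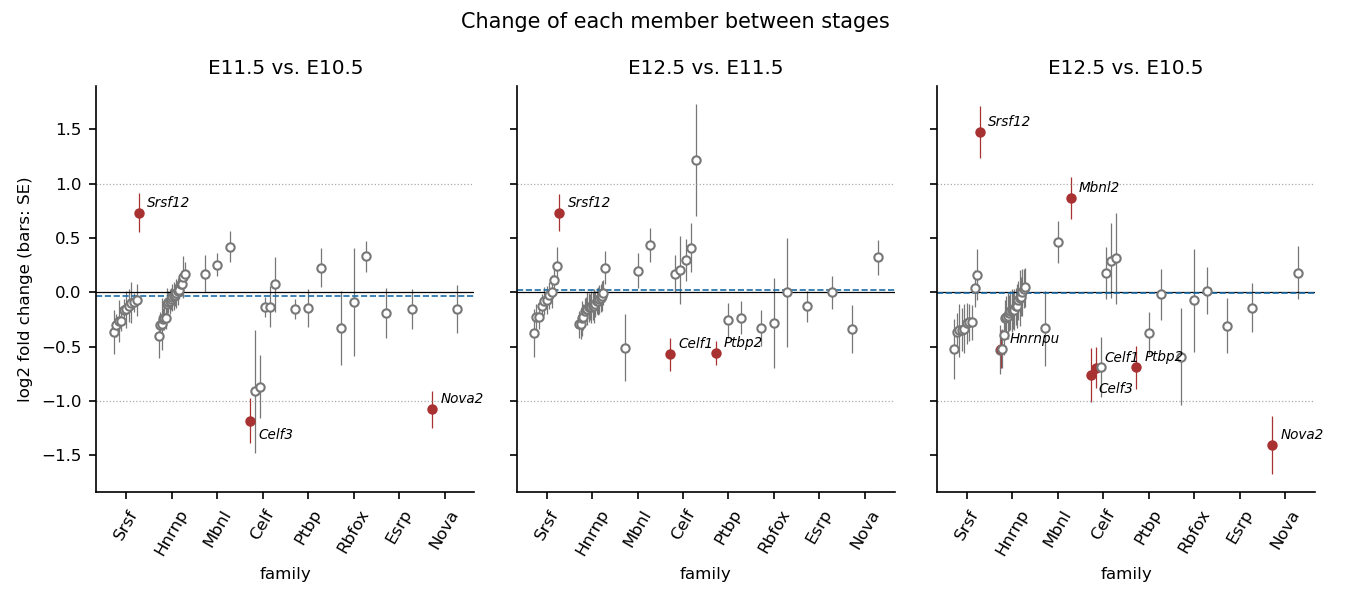
Log2 fold change of each member in the 3 comparisons of stages, by family, with standard errors as bars. Filled red points with names are those whose adjusted p-value did not exceed 0.05, dotted lines mark a 2-fold change and the dashed line is the median of all genes tested, and 38 of the 50 points lie below 0 in E12.5 vs. E10.5.

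**Figure D4:**
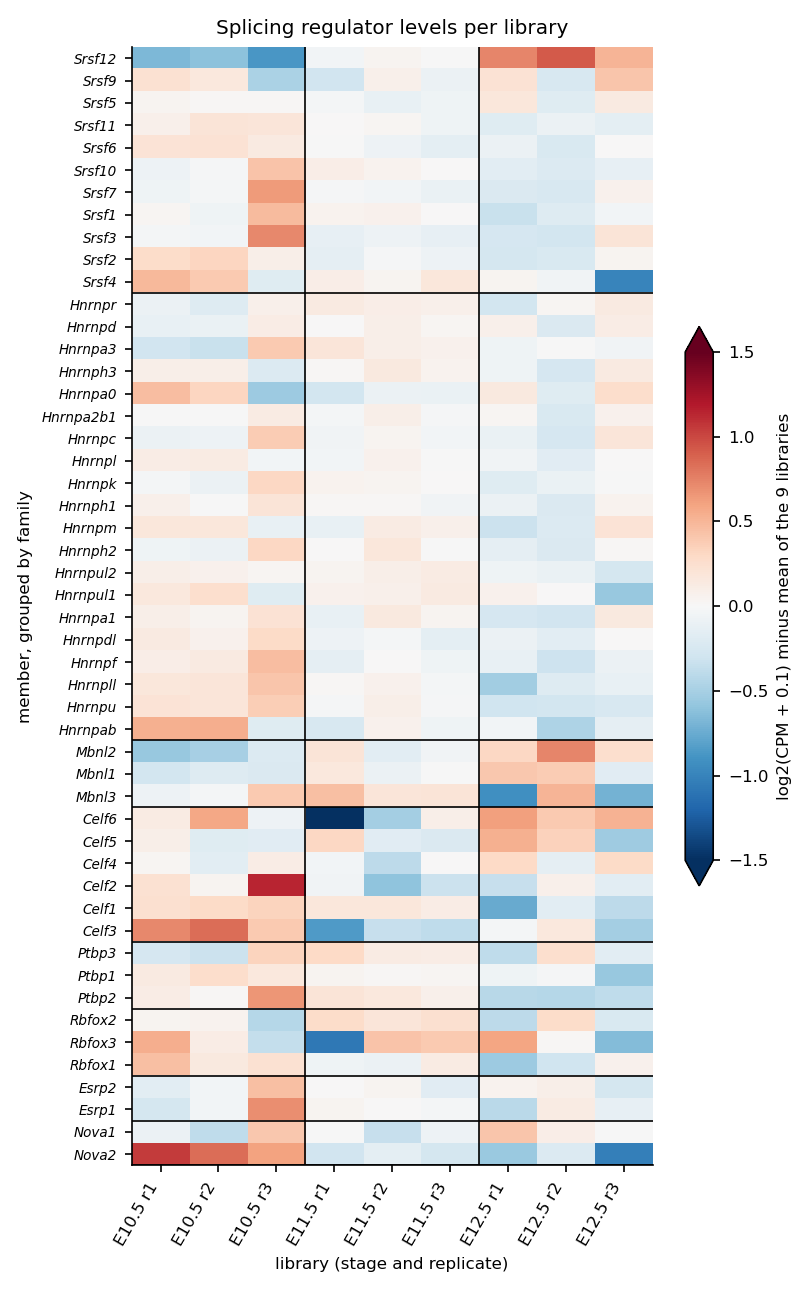
Heat map of log2(CPM + 0.1) of each member in the 9 libraries, less the member's mean over them, with rows grouped by family and columns by stage and replicate (r1 to r3). Srsf12 and Mbnl2 go from blue at E10.5 to red at E12.5, Nova2 and Celf1 go the other way, and E10.5 r3 differs from E10.5 r1 and r2 in many rows.

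Srsf12, an SR family member with little expression next to the others, was the member with the largest rise. Its E10.5 libraries stood at 3.92, 4.06 and 3.40 CPM, its E11.5 libraries at 6.13, 6.49 and 6.26 CPM, and its E12.5 libraries at 10.5, 12 and 9 CPM. The stages did not overlap, and each of the steps passed the test. Its log2 fold change was 0.73 (SE 0.18, adjusted p = 0.0376) in E11.5 vs. E10.5, 0.73 (SE 0.17, adjusted p = 0.0195) in E12.5 vs. E11.5 and 1.47 (SE 0.24, adjusted p = 0.00136) in E12.5 vs. E10.5. The change over the whole span passed the test under all 15 alternatives, with log2 fold changes from 1.37 to 1.57. The single steps were less firm and passed in 7 and 11 of 15. Srsf12 lies at chr4:33208991-33233340 (GRCm38, plus strand) and shares no exon sequence with another gene.

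None of the other 10 Srsf genes passed the test in any comparison. Their log2 fold changes in E12.5 vs. E10.5 lay between −0.52 (Srsf4, adjusted p = 0.199) and 0.16 (Srsf9, adjusted p = 0.655). Srsf7, the highest Srsf gene per length and a shuttling SR protein linked to mRNA export, had mean levels of 526 ± 155, 437 ± 12.5 and 415 ± 50.7 CPM at the successive stages (SD, n = 3). The wide spread at E10.5 came from replicate 3, with 705 CPM against 431 and 441. Srsf11, whose decay-linked exon is printed above, stood at 296, 321 and 319 CPM at E10.5, at 282, 287 and 269 CPM at E11.5 and at 249, 265 and 255 CPM at E12.5. Its stages did not overlap, but the log2 fold change of −0.27 (SE 0.16, adjusted p = 0.24) in E12.5 vs. E10.5 did not pass the test. Srsf4 shares 43.0% of its exon sequence with an antisense gene, which had 4 to 52 counts per library, and strand-specific counting is not stated.

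Of the 20 Hnrnp genes, Hnrnpu alone passed the test between stages. Hnrnpu encodes a nuclear matrix-associated protein that binds RNA and chromatin. It stood at 1650, 1620 and 1850 CPM at E10.5, at 1410, 1520 and 1410 CPM at E11.5 and at 1160, 1180 and 1210 CPM at E12.5. The stages did not overlap, and Hnrnpu fell with a log2 fold change of −0.52 (SE 0.17, adjusted p = 0.0472) in E12.5 vs. E10.5. This call passed in 7 of 15 alternatives, in which the log2 fold change ranged from −0.56 to −0.46. Hnrnpll, known for regulating Cd45 exons in lymphocytes, changed over the 3 stages (adjusted p = 0.0396), with means of 251, 213 and 175 CPM. Hnrnpu and Hnrnpll were named after their values were seen.

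The other Hnrnp genes did not pass the test between stages. Hnrnpa1 stood at 1780 ± 117, 1680 ± 144 and 1520 ± 264 CPM (SD, n = 3) at the successive stages, and its largest log2 fold change was −0.22 (adjusted p = 0.431). Hnrnpr had the highest value of the family over the whole span (log2 fold change 0.047, SE 0.18) and Hnrnpab the lowest (−0.53, SE 0.23, adjusted p = 0.12). Hnrnpab stood at 1220 and 1230 CPM in E10.5 replicates 1 and 2 but at 743 CPM in replicate 3, within the range of the later stages. Without that library its log2 fold change was −0.73 (SE 0.17, adjusted p = 0.0114). Hnrnpab shares 29.1% of its exon sequence with a neighbouring gene. Transcripts of other genes in the annotation, processed copies and overlapping neighbours among them, hold stretches of at least 100 bases with 98% identity to several family members, covering 74.4% of the longest Hnrnpf transcript, 30.9% of Hnrnpa1 and 28.9% of Hnrnpa3, and how such reads were assigned is not given in the sources used here.

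Among the Mbnl genes, Mbnl2 rose. It stood at 58.8, 61.8 and 76.1 CPM at E10.5, at 99.8, 78.5 and 84.4 CPM at E11.5 and at 108, 145 and 104 CPM at E12.5. The 3 stages did not overlap. The log2 fold change in E12.5 vs. E10.5 was 0.87 (SE 0.19, adjusted p = 0.00829), and it passed the test under all 15 alternatives (0.71 to 0.99). The steps of 0.42 (adjusted p = 0.097) and 0.44 (adjusted p = 0.089) did not pass on their own. Mbnl2 lies at chr14:120275669-120431697 (plus strand).

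Mbnl1, the paralogue that shares the 54-base exon, stood at 43.5, 45.7 and 45.2 CPM at E10.5, at 58.7, 49.3 and 52.1 CPM at E11.5 and at 69.5, 68.3 and 46.8 CPM at E12.5. All its later libraries lay above E10.5, with E12.5 replicate 3 only just so. The log2 fold change of 0.47 (SE 0.19, adjusted p = 0.102) over the whole span did not pass, and without that library it was 0.63 (adjusted p = 0.0357). Mbnl3 depended on 1 library. It stood at 8.33 and 9.65 CPM in E12.5 replicates 1 and 3 and at 22.5 CPM in replicate 2, against 15 to 21.7 CPM at the earlier stages. With all libraries the log2 fold change in E12.5 vs. E11.5 was −0.51 (SE 0.31, adjusted p = 0.299), and without E12.5 replicate 2 it was −1.10 (SE 0.16, adjusted p = 0.000896).

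Celf1, the main Celf gene of this tissue, fell at the last step. It stood at 378, 389 and 403 CPM at E10.5, at 359, 360 and 346 CPM at E11.5 and at 190, 286 and 243 CPM at E12.5. The stages did not overlap, though E12.5 was spread widely. The fitted log2 fold change was −0.13 (adjusted p = 0.379) in E11.5 vs. E10.5, −0.57 (SE 0.15, adjusted p = 0.0342) in E12.5 vs. E11.5 and −0.69 (SE 0.19, adjusted p = 0.0219) in E12.5 vs. E10.5. Each of these later calls passed in 11 of 15 alternatives, and in both comparisons the 4 that did not were fits with 1 library left out. Without E12.5 replicate 1 the log2 fold change in E12.5 vs. E11.5 was −0.42. Celf1 lies at chr2:90940382-91019497 (plus strand).

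Since Mbnl and Celf proteins oppose each other on many exons, the ratio of Celf1 to Mbnl1 plus Mbnl2 was formed from CPM per kb in each library. The E10.5 libraries gave ratios of 6.19, 6.07 and 5.45, the E11.5 libraries 3.71, 4.64 and 4.17, and the E12.5 libraries 1.77, 2.16 and 2.57. The ratio was lower in every library of each later stage. Its mean went from 5.9 ± 0.395 at E10.5 through 4.17 ± 0.466 to 2.17 ± 0.403 at E12.5 (SD, n = 3). The ratio is a description, since the values of its genes are those given above, and it leaves out Mbnl3. Its absolute size depends on the gene model lengths. A ratio within a library does not depend on the scaling of the library. Trends of a library along GC content or length can remain in it, since Celf1 (46.6% GC), Mbnl1 (39.7%) and Mbnl2 (49.3%) differ.

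Celf3, a mainly neuronal member, fell between the first stages. It stood at 12.8, 13.9 and 10.2 CPM at E10.5, at 4.25, 6.05 and 5.89 CPM at E11.5 and at 7.6, 8.62 and 5.42 CPM at E12.5. E10.5 lay above both later stages, which overlapped. The log2 fold change was −1.18 (SE 0.21, adjusted p = 0.0107) in E11.5 vs. E10.5 and −0.76 (SE 0.25, adjusted p = 0.0467) in E12.5 vs. E10.5. The first passed in 13 of 15 alternatives and the second in 9 of 15.

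Celf4, Celf5 and Celf6 did not pass the test between stages, nor did Celf2 in the fits used here for each pair. Celf2 changed over the 3 stages together (adjusted p = 0.0406), but its E10.5 value rested on replicate 3, at 104 CPM against 54.9 and 48.3 CPM, with 30.8 to 49.4 CPM at the later stages. Without that library the log2 fold change in E11.5 vs. E10.5 was −0.45 (SE 0.13, adjusted p = 0.0139), compared with −0.87 (SE 0.29, adjusted p = 0.0956) with it. That first step passed in 6 of 15 alternatives, among them DESeq2 (−0.87, adjusted p = 0.0236) and the fit on 9 libraries (−0.87, adjusted p = 0.048). Celf4 lay between 5.38 and 8.78 CPM and Celf5 between 1.85 and 4 CPM in all libraries, with overlapping stages. Celf6 lay under 1 CPM in all libraries. All its E12.5 libraries lay above those of E11.5, with a log2 fold change of 1.22 (SE 0.51, adjusted p = 0.144). That value rests on 2, 8 and 12 counts at E11.5 and 17, 15 and 15 counts at E12.5.

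Nova2 fell and its paralogue Nova1 did not pass the test. Nova2 stood at 15.8, 13.7 and 11.6 CPM at E10.5, at 6.23, 6.87 and 6.32 CPM at E11.5 and at 5.12, 6.57 and 3.69 CPM at E12.5. As with Celf3, E10.5 lay above both later stages. Its log2 fold change was −1.08 (SE 0.17, adjusted p = 0.00736) in E11.5 vs. E10.5 and −1.41 (SE 0.27, adjusted p = 0.00324) in E12.5 vs. E10.5. The first passed in 13 of 15 alternatives and was lost without E11.5 replicate 1 or 3 (adjusted p up to 0.0556), and without E10.5 replicate 1 it was under 2-fold (−0.96). The second passed under all 15 (−1.63 to −1.22). Nova1 lay between 11.4 and 20 CPM, with log2 fold changes of −0.15 (adjusted p = 0.702) and 0.18 (adjusted p = 0.63) in the same comparisons. The ratio of Nova2 to Nova1 per kb was 1.18, 1.25 and 0.618 in the E10.5 libraries, 0.441, 0.615 and 0.468 in those of E11.5 and 0.268, 0.429 and 0.259 in those of E12.5. Nova2 lies at chr7:18925888-18965319 (plus strand), and an antisense gene that overlaps 31.7% of its exon sequence had 0 counts in all 9 libraries. How reads in the shared stretch were assigned is not stated, so these counts cannot show whether Nova2 lost reads there.

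Neural progenitor markers fell in E11.5 vs. E10.5 as Celf3 and Nova2 did, whereas neuronal markers moved in both directions. The summed level of 10 neural progenitor genes (among them Sox1, Sox2, Nes and Pax6) was 577 to 741 CPM at E10.5, 205 to 258 CPM at E11.5 and 187 to 221 CPM at E12.5. Of these, 9 of the 10 were downregulated DEGs in E11.5 vs. E10.5, where 2.61% of all genes were. Sox1, a defining marker of this list, stood at 48.7 CPM at E10.5 and at 0.631 CPM at E11.5. Within E10.5 the order of the libraries differed. Replicate 3 had the highest progenitor sum (741 CPM, against 609 and 577) but the lowest Celf3 (10.2 CPM) and Nova2 (11.6 CPM). Celf3 (56.2% GC) and Nova2 (56.3% GC) are GC-rich, and GC-rich members lay low in that library. Its order is therefore not read as a result on the progenitor genes. The summed level of 14 neuronal genes was 306 to 367, 352 to 368 and 476 to 531 CPM at the successive stages. In E11.5 vs. E10.5, 2 of these 14 genes fell (Elavl3 by −0.61 and Isl1 by −0.65 on the log2 scale) and 2 rose without a fold threshold. Over all genes 5.58% fell and 6.19% rose. Over the whole span 2 of the 14 rose (Stmn2 by 2.61 and Gap43 by 1.58) and 1 fell. Over all genes 14% rose and 10.5% fell. The part of neural cells in the levels of Celf3 and Nova2 was not tested, and in bulk tissue fewer cells of a type and less RNA per cell cannot be told apart.

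Ptbp2, the Ptbp paralogue that is prominent in developing neurons, fell at the last step. It stood at 259, 243 and 380 CPM at E10.5, at 275, 268 and 253 CPM at E11.5 and at 180, 179 and 184 CPM at E12.5. The E12.5 libraries lay closely together and below all others. The log2 fold change was −0.14 (adjusted p = 0.637) in E11.5 vs. E10.5, −0.56 (SE 0.11, adjusted p = 0.00899) in E12.5 vs. E11.5 and −0.69 (SE 0.20, adjusted p = 0.0293) in E12.5 vs. E10.5. Each of these calls passed in 12 of 15 alternatives. The second step was lost in the fit on 9 libraries (adjusted p = 0.064) and without E11.5 replicate 1 or 2. The change over the whole span was lost when any of the 3 E12.5 libraries was left out (adjusted p = 0.064 to 0.105), and without E10.5 replicate 3, the highest library, it was −0.46 (adjusted p = 0.0367). Ptbp2 lies at chr3:119718742-119784466 (minus strand).

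Ptbp1, which represses the printed Ptbp2 exon, stood at 713 ± 33.9, 639 ± 6.3 and 546 ± 108 CPM (SD, n = 3) at the successive stages, with a log2 fold change of −0.38 (SE 0.20, adjusted p = 0.186) over the whole span. Its stages did not overlap, though E12.5 replicate 3, at 421 CPM, lay well below the other E12.5 libraries at 599 and 618 CPM. The ratio of Ptbp1 to Ptbp2 per kb was between 3.56 and 6.67 and its stages overlapped. Ptbp3 lay between 122 and 201 CPM and its stages overlapped.

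Rbfox2, the only well expressed Rbfox gene, was highest at E11.5 without passing the test. It stood at 310, 312 and 224 CPM at E10.5, at 366, 342 and 355 CPM at E11.5 and at 229, 364 and 258 CPM at E12.5. The fitted log2 fold change was 0.33 (SE 0.14, adjusted p = 0.169) in E11.5 vs. E10.5 and −0.32 (SE 0.17, adjusted p = 0.218) in E12.5 vs. E11.5. Each step passed in 1 of 15 alternatives. The first was 0.19 (adjusted p = 0.0286) without E10.5 replicate 3. The second was −0.19 (adjusted p = 0.511), −0.55 (adjusted p = 0.00452) and −0.27 (adjusted p = 0.337) without E12.5 replicates 1, 2 and 3 in turn. Rbfox1 lay between 0.394 and 0.89 CPM and Rbfox3 between 0.376 and 1.41 CPM.

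Esrp1 and Esrp2, the epithelial regulators, did not pass the test in any comparison of stages. Esrp1 stood at 53.8, 62.8 and 105 CPM at E10.5, at 66.3, 64.8 and 63 CPM at E11.5 and at 48.6, 70.2 and 59.2 CPM at E12.5. Esrp2 stood at 13.9, 15.1 and 21.2 CPM at E10.5, at 15.5, 15.9 and 13.7 CPM at E11.5 and at 16, 16.5 and 12.9 CPM at E12.5. For both genes all stages overlapped, and E10.5 replicate 3 was the highest library. The log2 fold change in E12.5 vs. E10.5 was −0.31 (SE 0.25, adjusted p = 0.415) for Esrp1 and −0.14 (SE 0.23, adjusted p = 0.697) for Esrp2.

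Epithelial markers were also highest in E10.5 replicate 3 among the E10.5 libraries. The summed level of 19 epithelial genes was 673, 743 and 1180 CPM at E10.5, 715, 727 and 752 CPM at E11.5 and 1010, 1000 and 1150 CPM at E12.5. In the same library the sum of 12 mesenchymal genes was 1440 CPM, against 2640 and 2680 CPM in the other E10.5 libraries. The keratins Krt5, Krt14 and Krt15 rose over the whole span (Krt5 from 2.12 to 151 CPM, Krt14 from 16 to 157 CPM and Krt15 from 2.1 to 29.4 CPM) and raise the E12.5 sum. Other genes of the list fell, among them Krt8 (log2 fold change −0.83, adjusted p = 0.0151), Krt18 (−1.02, adjusted p = 0.0091) and Cldn6 (−0.99, adjusted p = 0.00529). Of the 19 genes, 4 were upregulated DEGs over the whole span and 1 was a downregulated DEG. The pan-epithelial Epcam and Cdh1 together stood at 162, 178 and 284 CPM at E10.5, at 168, 184 and 177 CPM at E11.5 and at 184, 194 and 198 CPM at E12.5, and like Esrp1 they were highest in E10.5 replicate 3. The share of epithelium in each library and its part in the Esrp levels was not tested.

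**Figure D5:**
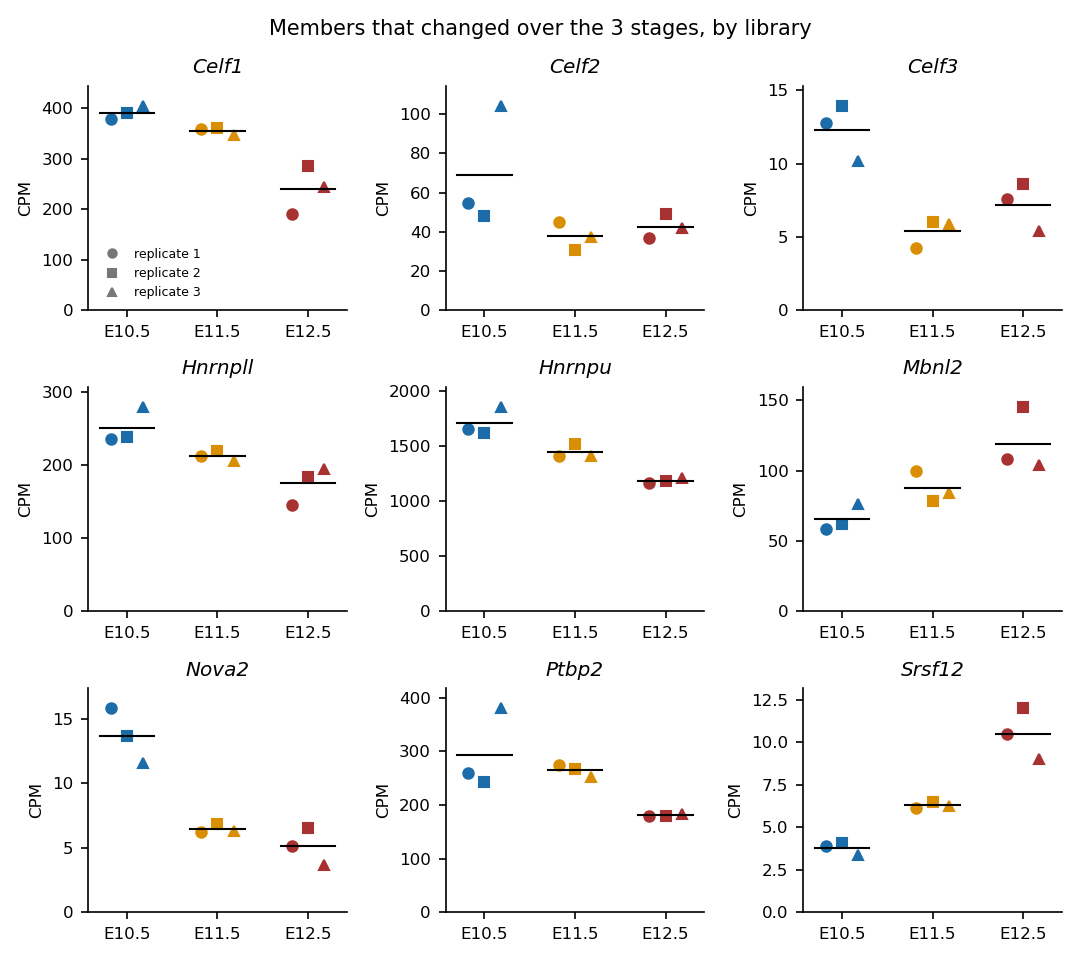
CPM in each library (symbols by replicate, colours by stage, horizontal bars as means) of the 9 members that passed the test of the 3 stages together (adjusted p-value up to 0.05). Srsf12 and Mbnl2 climb from stage to stage, Celf1 and Ptbp2 are lowest at E12.5, Celf3 and Nova2 are highest at E10.5, and E10.5 replicate 3 is the highest library for Celf2 and Ptbp2.

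The number of calls depended on the library that stood apart, among the members as among all genes. Without E10.5 replicate 3, 19 of 50 members (38%) passed the test without a fold threshold in E11.5 vs. E10.5, where the share over all genes was 39.6%. Its log2 fold change was positive for 8 of them and negative for 11. Besides Srsf12, Nova2 and Celf3, these included Mbnl1 (0.26, adjusted p = 0.0323), Mbnl2 (0.54, adjusted p = 0.00076), Mbnl3 (0.33, adjusted p = 0.0461) and Ptbp3 (0.47, adjusted p = 0.000282), and with lower levels Hnrnpab (−0.61, adjusted p = 0.000118), Hnrnpa0 (−0.54, adjusted p = 0.000185) and Srsf2 (−0.37, adjusted p = 0.000758). The DEGs by the fold threshold were again 2, and 28 of 50 members had a negative log2 fold change instead of 37. In E12.5 vs. E11.5, 1 member passed without E12.5 replicate 1 (4.71% of all genes), 8 without replicate 2 (30.8%) and 3 without replicate 3 (11%).

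Among genes of the wider splicing machinery, most of those that passed the test over the whole span also fell. The shares passing in either direction without a fold threshold were 14%, 18.2% and 19.5% in the lists below, against 24.6% of all genes. These genes were not followed under the alternatives. Of 43 core spliceosome genes tested, 6 fell and 0 rose in E12.5 vs. E10.5 without a fold threshold, where 10.5% of all genes fell and 14% rose. Their median log2 fold change was −0.22. The 6, named after their values were seen, were Prpf8 (−0.69, adjusted p = 0.0383), Eftud2 (−0.69, adjusted p = 0.0115), Snrnp200 (−0.59, adjusted p = 0.0427), Sf3b3, Prpf4 and Dhx38 (adjusted p = 0.05, at the threshold). Prpf8, Eftud2 and Snrnp200 belong to the U5 particle, and the U5 proteins Prpf6 (−0.069, adjusted p = 0.788), Snrnp40 (−0.11, adjusted p = 0.682) and Ddx23 (−0.18, adjusted p = 0.468) of the same list did not pass. Of 22 SR-related proteins and SR protein kinases, 4 fell and 0 rose, with a median of −0.32. They included Srpk1, a kinase that phosphorylates SR proteins (−0.59, adjusted p = 0.0224), and Srrm4, the neuronal microexon regulator, which was a DEG (−1.32, adjusted p = 0.00996). Of 41 other splicing regulators, 7 fell and 1 rose, with a median of −0.15. Msi1 (−1.21, adjusted p = 0.00134) and Rbm38 (−1.07, adjusted p = 0.00128) were downregulated DEGs, and Khdrbs2, a neuronal regulator of neurexin splicing, was upregulated from 1.12 CPM at E10.5 to 2.32 CPM at E11.5 and 5.34 CPM at E12.5 (2.25, adjusted p = 0.00149).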

How the data were processed

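Reads were mapped by the authors to GRCm38/mm10 with HISAT2 2.0.5 and counted per gene with featureCounts. The values used are the deposited whole-number counts per gene and library, without normalization. The gene lengths are those deposited in the same table. The deposited FPKM values, stage means of normalized counts, log2 fold changes and p-values of the authors were not used. Strand setting and treatment of multi-mapping reads are not given in the sources used here. For each comparison, its 6 libraries were fitted with edgeR 4.0.16 (R 4.3.3), with filterByExpr, TMM normalization, the quasi-likelihood test and Benjamini-Hochberg adjustment over all genes. The 3 stages were tested together on 9 libraries. The SE of a log2 fold change was taken as its size over the root of the F statistic. CPM used TMM-scaled library sizes. The procedure was tested on simulated data. Library totals were 16581009 to 20836804 counts, and replicates differed by more than counting error (chi-square per degree of freedom 4.34 to 66.3 between pairs).

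GC content, exon overlap, transcript classes and exon sequences are from GENCODE vM21, in which 48 of the 50 members had the coordinates of the deposited table. Near-identical stretches were searched with BLAST 2.17.0. DESeq2 1.42.0 was an alternative. Others were DESeq2 size factors in edgeR, upper quartile scaling, other filters, a fit on 9 libraries, the replicate number as a block, removal of the GC trend and leaving out each library. The members and lists were chosen with earlier results of these data known. Members were named when called at 2-fold, when in a family of at most 6, when at either end of the Srsf or Hnrnp families, or when entered in the study's splicing table. Other named members were chosen after their values were seen.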

Additional observations from a re-analysis of the deposited data

How the results depend on the processing

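Below, the first interval is E11.5 vs. E10.5, the second is E12.5 vs. E11.5 and the whole span is E12.5 vs. E10.5. Of 1252 log2 fold changes of single members under an alternative, 44 lost and 38 gained a call. A further 8, uncalled, changed direction and moved by at least the standard error of the main fit. The other 1162 stayed on the same side of the threshold. Any that changed direction among them moved by less than that standard error. Over the whole span the number of members called at 2-fold was 2 under every alternative run, where the shares over all genes were 8.85% to 16.6%. Leaving out single libraries gave 0 to 2 members called at 2-fold in the first interval (0 when E11.5 replicate 1 or 3 was left out, 1 for E10.5 replicate 1) and 0 to 1 in the second (1 for E12.5 replicate 2). In these 4 fits, in this order, 2.44%, 2.8%, 5.81% and 7.3% of all genes were called. Without the fold threshold the leave-outs gave 0 to 19 members in the first interval. There were 19 for E10.5 replicate 3 (39.6% of all genes) and 0 for E11.5 replicate 1 (2.95%) or 3 (3.25%). In the second interval the leave-outs gave 0 to 8, with 8 for E12.5 replicate 2 (30.8% of all genes). There were 0 for E11.5 replicate 1 (6.37%) or 2 (4.41%) and 1 for E11.5 replicate 3 (5.49%) or E12.5 replicate 1 (4.71%). Over the whole span the leave-outs gave 3 for E12.5 replicate 1 (13.4% of all genes) to 8 for E10.5 replicate 3 (30.1%). There were 4 for E10.5 replicate 1 (19.2%) or E12.5 replicate 3 (15.7%). Over the 3 stages together the leave-outs gave 4 (E12.5 replicate 1) to 12 (E10.5 replicate 3). The shares over all genes are not given for those fits. The median log2 fold change of the members ranged from −0.138 to −0.049 in the first interval and from −0.157 to −0.042 in the second, the values nearest 0 coming from the fits that left out E10.5 replicate 3 and E12.5 replicate 2. With the GC trend removed, 9 members passed without the fold threshold in the first interval (22.5% of all genes). With all genes of at least 1 count, 5 passed in the second (11.5% of all genes). The causes were not tested.

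Deviations of libraries with the same replicate number correlated between −0.151 and 0.22, so the numbers were not taken as pairs. With the replicate block, 2, 0 and 2 members were called at 2-fold in the first interval, the second and the whole span. The shares over all genes were 5.57%, 5.61% and 15.6%. Without the fold threshold 2, 3 and 9 members passed, against 8.07%, 13.9% and 28.1% of all genes. Over the 3 stages together 9 members passed. With the GC trend removed and the replicate block together, 12 members (24%) passed over the whole span without the fold threshold, against 37.1% of all genes.

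Members below 1 CPM (Celf6, Rbfox1) or near it (Rbfox3) are limited by depth, and 3 libraries per stage limit all calls.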
